A study of Mus musculus with 2 samples.

Results

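The 7 genes described here encode the neutrophil-attracting chemokines Cxcl1, Cxcl2 and Cxcl3, the receptors Cxcr2 and Csf3r, and the calcium-binding proteins S100a8 and S100a9. They were taken by symbol from the 31053 genes listed in both matrices, and all 7 were found once in each. The cells were leukocytes of subcutaneous B16-F10 melanomas, a mouse melanoma line, grown in wild-type female C57BL/6 mice of 10 weeks at implantation. Live CD45-positive cells were enriched on Ficoll, sorted and profiled with 10x Genomics 3′ v3 chemistry, giving 1 library from OX40 agonist-treated mice and 1 from control mice. The agonist is an antibody that activates OX40, a costimulatory receptor on activated T cells. The labels do not give the antibody clone, dose or schedule, what the control mice received, or how many mice went into a library.

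CXCL1, CXCL2 and CXCL3 bind the receptor CXCR2, which neutrophils use to leave the bone marrow and to enter inflamed tissue. CSF3R is the receptor for granulocyte colony-stimulating factor, the cytokine that drives neutrophil production and survival. S100A8 and S100A9 pair to form calprotectin, an abundant protein of the neutrophil cytosol that binds metal ions and can signal through Toll-like receptor 4 when released.

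The 3 chemokine genes lie on mouse chromosome 5, in GRCm38 (mm10) coordinates of GENCODE M21 and all on the plus strand. Cxcl3 (ENSMUSG00000029379) spans 90786103 to 90789600, Cxcl1 (ENSMUSG00000029380) spans 90891241 to 90893115, and Cxcl2 (ENSMUSG00000058427) spans 90903871 to 90905938. S100a8 (ENSMUSG00000056054, plus strand, 90668978 to 90670035) and S100a9 (ENSMUSG00000056071, minus strand, 90692632 to 90695721) are near neighbours on chromosome 3. Cxcr2 (ENSMUSG00000026180) is on chromosome 1 at 74153989 to 74161246, and Csf3r (ENSMUSG00000028859) on chromosome 4 at 126024550 to 126044440.

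The stretch just before the start of each chemokine gene is shown because the 3 genes share a sequence there. The letters are RefSeq promoter sequence of GRCm38.p6, plus strand, 5′ to 3′, ending before the annotated start, with the longest run of letters common to all 3 windows in capitals.
Cxcl1, chr5:90891125-90891240: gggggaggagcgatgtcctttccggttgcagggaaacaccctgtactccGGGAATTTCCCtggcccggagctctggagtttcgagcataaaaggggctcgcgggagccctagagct
Cxcl2, chr5:90903779-90903870: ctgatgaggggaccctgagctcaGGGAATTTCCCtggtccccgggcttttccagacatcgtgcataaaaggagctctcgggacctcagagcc
Cxcl3, chr5:90785981-90786100: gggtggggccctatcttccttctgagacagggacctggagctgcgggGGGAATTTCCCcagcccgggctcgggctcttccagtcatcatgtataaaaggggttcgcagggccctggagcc
The capitals mark GGGAATTTCCC, 11 bases, which was the longest run shared by the 250 bases before the RefSeq starts of Cxcl1, Cxcl2 and Cxcl3. It has the form of the motif bound by NF-kB, a transcription factor of inflammatory signalling, and was chosen after the sequences were read. Its first base lies 71 bases before the RefSeq start of Cxcl1, 97 before that of Cxcl2 and 73 before that of Cxcl3. The same window was searched on both strands in all 7 members, and the other 4 held no match. Of 32851 promoters in the RefSeq table, 14 held a match in this window, a share of 0.0426%, the 3 chemokine genes included. A match describes letters and does not show that a factor was bound in these cells.

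The library from OX40 agonist-treated mice held 8569 barcodes and 118059108 UMIs (unique molecular identifiers, 1 per captured RNA molecule), and the control library held 7187 barcodes and 114026695 UMIs. After filtering, 6986 treated and 5989 control cells were kept. The libraries shared 18 barcodes, of which 12 passed the filters in both. Cells were gated by marker genes that include no member. The gates held 83 treated and 36 control neutrophils, 750 and 700 monocytes, 1762 and 1218 macrophages, 435 and 236 mature migratory dendritic cells (DCs), 124 and 87 type 1 conventional DCs (cDC1), 127 and 86 type 2 (cDC2), and 569 and 379 melanoma cells that had come through the CD45 sort. No class was given to 12.2% of treated and 14.2% of control cells. Another 159 treated and 181 control droplets carried T or NK cell markers with macrophage RNA and were set apart.

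Levels below are in CPM, a gene's summed UMIs in a class scaled to a class total of 1000000 UMIs. With 1 library per group no difference has a replicate check. Intervals in parentheses are 95% counting intervals, and since UMIs of the same cell are not independent, those of levels and folds are too narrow. A size rule named the larger differences: an absolute log2 ratio of at least 1 after adding 10 CPM, Poisson intervals that did not overlap, and at least 30 UMIs and 50 CPM in the higher library. It was applied to genes at 10 CPM or more in either library. Over the 10 classes, 34 pairs of a member and a class reached that level, and 5 met the rule: Cxcr2 in neutrophils, Cxcl2 in cDC1, Cxcl1 and Cxcl2 in mature migratory DCs, and Cxcl2 in NK cells. The share of all genes that met it in a class lay between 0.0153% and 0.649% and is given beside the counts below. Genes with under 50 CPM in the higher library are counted as tested, though they could not meet the rule.

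**Figure D1:**
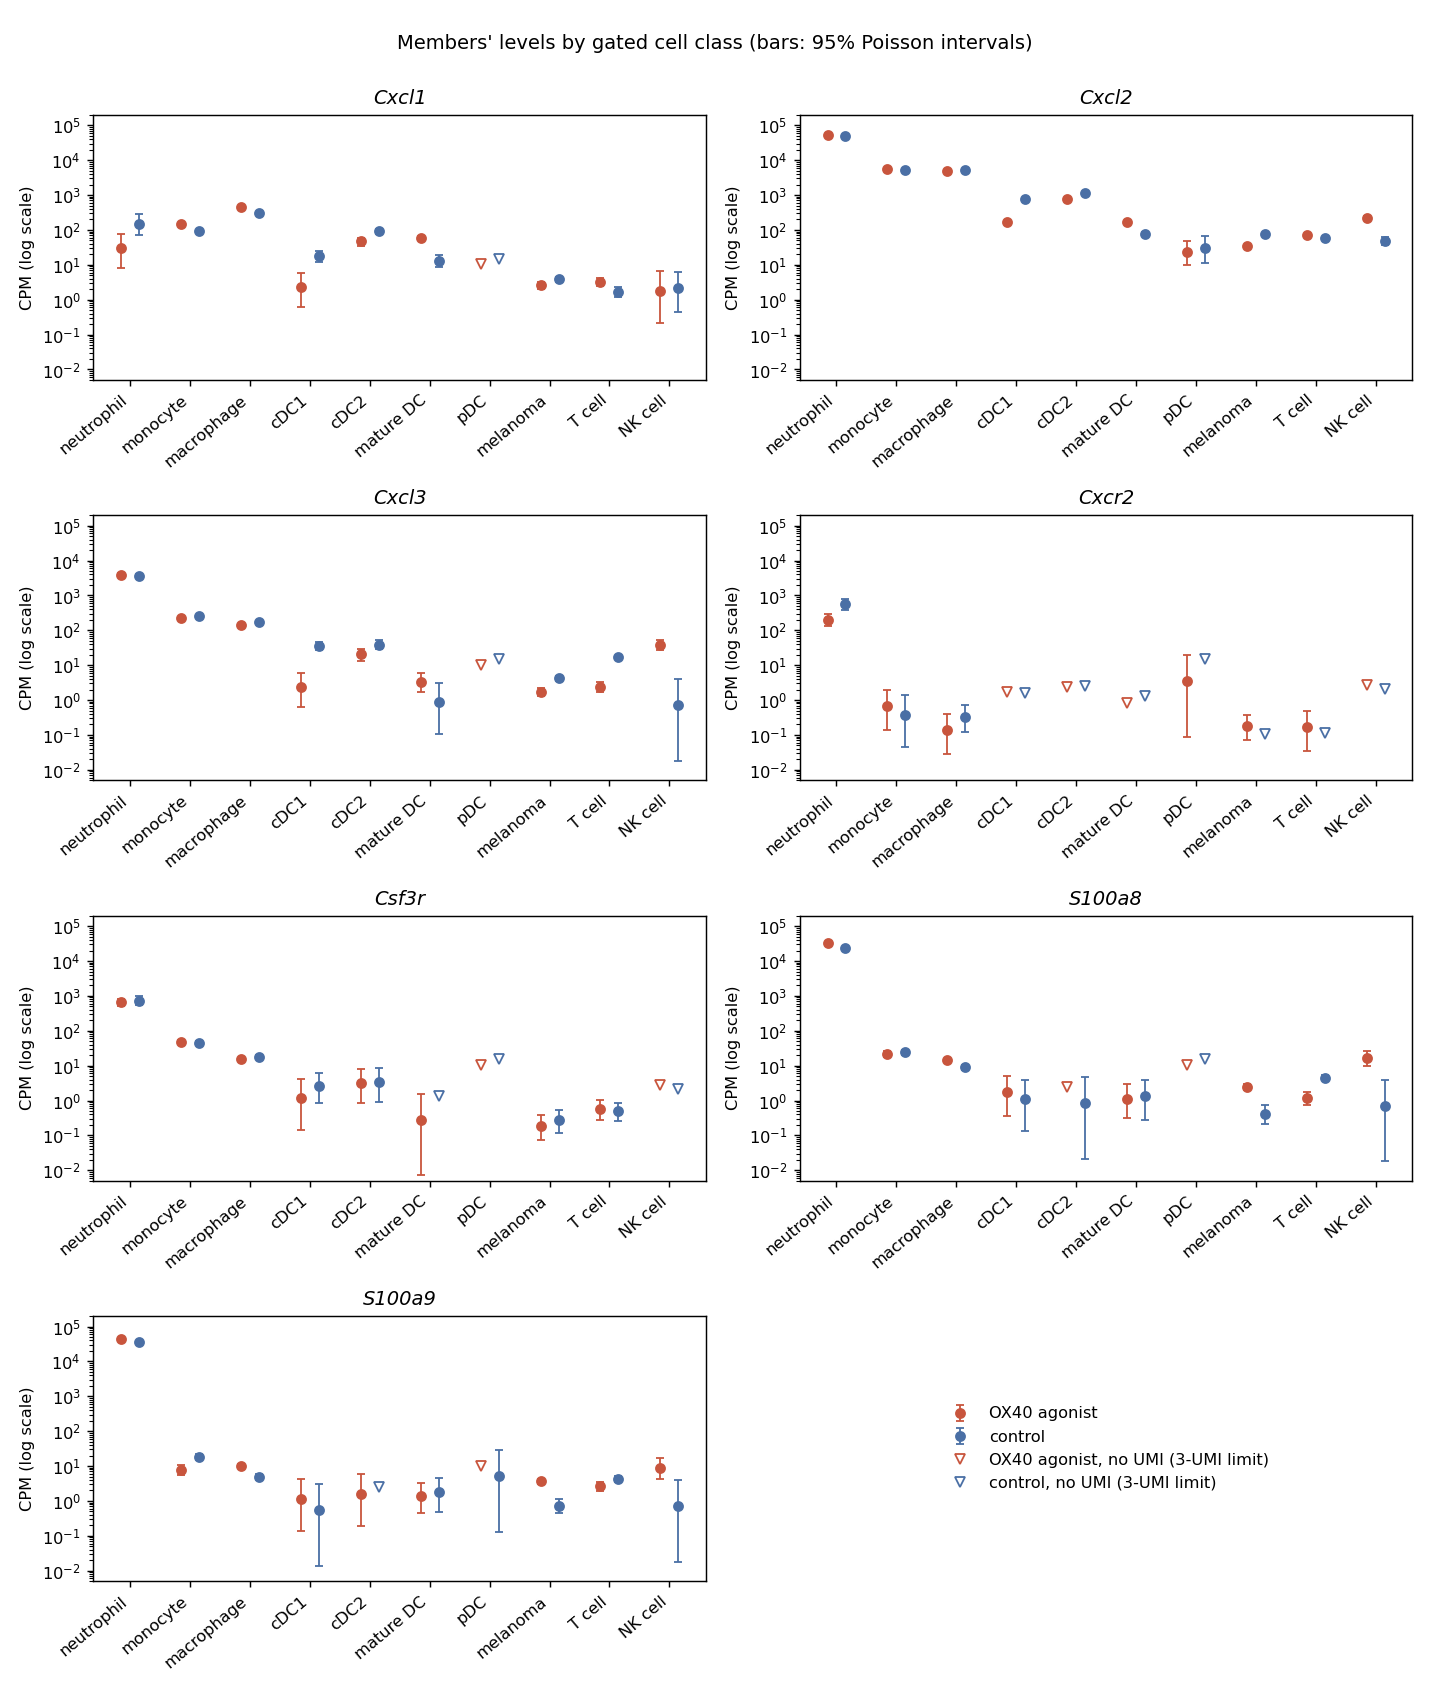
Level of each member in CPM (log axis) in 10 gated cell classes, OX40 agonist library left of the control library in each pair; bars are 95% Poisson intervals and open triangles mark the limit that 3 UMIs would give where no UMI was found. Cxcl2, Cxcl3, Cxcr2, Csf3r, S100a8 and S100a9 were highest in neutrophils in both libraries, and Cxcl1 was highest in macrophages.

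Neutrophils were the highest class for 6 of the 7 members in both libraries, and macrophages for Cxcl1. The neutrophil gate held all 10 of its markers, with a summed level of 13696 CPM in the treated and 13644 CPM in the control library. Ly6g, the classical surface marker, was low, with a UMI in 3.61% of treated and 8.33% of control cells. Hdc, Il1r2 and G0s2 were each found in over 75% of the cells of both libraries. Macrophage markers summed to 580 and 592 CPM in treated and control neutrophils, monocyte markers to 992 and 440 CPM, and melanoma markers to 382 and 486 CPM. T cell markers summed to 68.7 and 167 CPM, plasmacytoid DC markers to 84.0 and 212 CPM, and cDC1 markers to 68.7 and 30.4 CPM. Markers of B cells, mast cells and fibroblasts had no UMI there. These cells were shallow, with medians of 1490 and 1687 UMIs against 10987 and 12946 in macrophages.

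Neutrophils made up 1.19% (0.947 to 1.47) of kept treated cells and 0.601% (0.421 to 0.831) of kept control cells, a ratio of 1.98 (1.32 to 3.01). They held 0.130% of the treated and 0.0661% of the control library's UMIs. The Ficoll step, the minimum of 500 UMIs and the gate can all set this share. Clusters named from the same markers gave 156 treated and 55 control neutrophils, a ratio of 2.43.

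S100a8 and S100a9 were abundant in neutrophils and rare elsewhere. S100a8 was at 32431 CPM (31463 to 33421) in treated and 23509 CPM (22352 to 24709) in control neutrophils, 1.38-fold (1.30 to 1.46). S100a9 was at 44852 CPM in treated and 35483 CPM in control neutrophils, 1.26-fold (1.21 to 1.33). In every other class both genes were under 25 CPM. Gated neutrophils held 76.0% of treated and 64.7% of control S100a8 UMIs, and 81.3% and 77.0% of S100a9 UMIs.

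A large part of the S100 difference came from 1 treated cell. That cell had 5087 UMIs, of which 822 were S100a8 and 1031 S100a9, and had no UMI of Cxcl1, Cxcl2 or Cxcl3. It also held 571 of the 576 treated neutrophil UMIs of the granule genes Ltf (lactoferrin), Camp (cathelicidin) and Ngp, which are made during neutrophil maturation. Without it S100a8 was at 27212 CPM and S100a9 at 38475 CPM in treated neutrophils. The control neutrophil richest in the same genes held only 1 UMI of them, among 4843 UMIs in all. With that cell also left out, the control levels were 24243 and 35726 CPM and the log2 ratios 0.17 and 0.11, against 0.46 and 0.34 with both cells. Leaving out instead the cell with most UMIs of the gene in each library gave 0.34 for S100a8 and 0.21 for S100a9. The median neutrophil held 28 UMIs of S100a8 and 41 of S100a9 in the treated library, and 27 and 44 in the control library. As a percent of a cell's own UMIs, the medians for S100a8 were 2.18% and 1.59%. The highest values were 16.2% and 14.2%, and apart from the top cells the libraries overlapped over nearly their whole range.

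Over all kept cells the S100 genes were the members that differed most. S100a8 was at 55.6 CPM in the treated and 24.0 CPM in the control library, 2.31-fold (2.21 to 2.43). S100a9 was at 71.8 and 30.5 CPM, 2.36-fold (2.26 to 2.46). Of the 5 members tested over all kept cells, only S100a9 met the size rule, with a log2 ratio of 1.02 against 0.95 for S100a8. The rule was met by 0.0496% of all 8072 genes tested there. The neutrophils' share of all UMIs was 1.97 times as high in the treated library, and in a library sum more cells of a type and more RNA per cell cannot be told apart. Cxcr2, also a neutrophil transcript, was at 0.537 and 0.502 CPM over all kept cells, 1.07-fold (0.715 to 1.61). Cxcl1 was 1.53-fold (1.49 to 1.57), Cxcl2 1.02-fold, Cxcl3 0.927-fold and Csf3r 0.875-fold. Without the granule-rich treated cell and the control neutrophil with 1 granule gene UMI, the log2 ratios were 0.78 for S100a8 and 0.88 for S100a9.

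Outside neutrophils, S100a8 was found in few cells. After thinning each cell to 1000 UMIs, S100a8 was found in 0.669% of treated and 0.863% of control monocytes and in 0.632% and 0.583% of macrophages, against 0.171% and 0.156% of T cells, taken as background. Of the monocyte S100a8 UMIs, 36.2% came from 1 cell in either library, and of the macrophage ones 41.6% in the treated and 17.6% in the control library. In gated monocytes the log2 ratio was -0.11 for S100a8 and -0.66 for S100a9. When clusters took the place of the gate these were 1.27 and 1.49, and both met the size rule. After thinning they were 0.10 and 0.12, so no direction held in monocytes. Cells without a class held 13.7% of treated and 16.9% of control S100a8 UMIs.

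**Figure D2:**
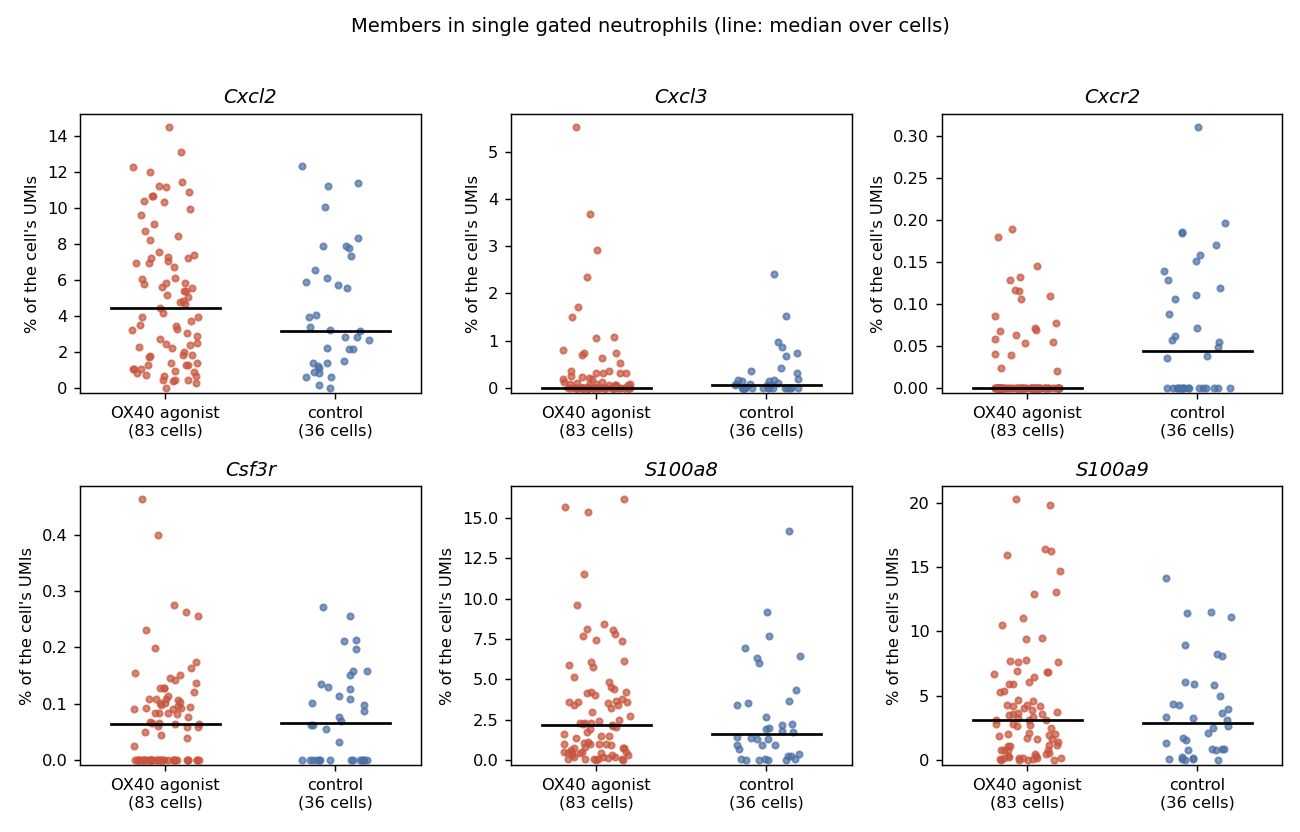
Percent of a cell's UMIs given by each of 6 members in single gated neutrophils, 83 cells of the OX40 agonist library left of 36 cells of the control library; each point is 1 cell and the line is the median over cells. Cxcr2 was found in 22 treated and 20 control cells, while the S100 and Cxcl2 values of the libraries overlapped.

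The receptor Cxcr2 was lower in treated neutrophils and was the member that met the size rule there. It had 26 UMIs in the 83 treated and 37 UMIs in the 36 control neutrophils, or 198 CPM (130 to 291) and 562 CPM (395 to 774). The ratio was 0.353-fold (0.206 to 0.600), a log2 ratio of -1.45. With at most 5% mitochondrial UMIs per cell it was -1.43 but no longer met the rule. Cxcr2 was found in 26.5% (17.4 to 37.3) of treated and 55.6% (38.1 to 72.1) of control neutrophils. After thinning to 1000 UMIs the shares were 15.4% (7.63 to 26.5) of 65 treated and 38.7% (21.9 to 57.8) of 31 control cells. No treated cell held more than 2 Cxcr2 UMIs and no control cell more than 4, so the difference was spread over cells. In the wider neutrophil cluster, Cxcr2 had 32 UMIs in 156 treated and 40 in 55 control cells, 0.367-fold (0.223 to 0.600). Some markers of the neutrophil gate differed too. Lrg1 was at 176 CPM in treated and 440.1 CPM in control neutrophils, and Stfa2l1 at 588 and 1184 CPM. Retnlg went the other way, at 2718 and 1457 CPM. Trem1 was found in 66.3% of treated and 86.1% of control cells and Hdc in 75.9% and 91.7%, but Retnlg in 61.4% and 41.7%. The monocyte markers were at the levels given above. The part of all these markers in the Cxcr2 difference was not tested. The rule was met by 1 of the 7 members in neutrophils and by 0.363% of the 6609 genes tested there, whose median log2 ratio was -0.21.

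Csf3r, the other receptor, was near the same level in both libraries. It was at 657 CPM (525 to 811) in treated and 728 CPM (537 to 966) in control neutrophils, 0.901-fold (0.626 to 1.31), and was found in 60.2% and 61.1% of the cells. After thinning it was found in 26 of 65 treated and 14 of 31 control cells. Cxcr2 was under 4 CPM in every other class, with 3 treated and 6 control UMIs in all macrophages together. Gated neutrophils held 48.1% of the 54 treated and 74.0% of the 50 control Cxcr2 UMIs. Cells without a class held 11 and 3 of them, and melanoma cells 7 and 0. Csf3r reached further. It was at 48.2 and 44.4 CPM in treated and control monocytes, found in 22.1% and 27.4% of cells, and at 15.04 and 18.0 CPM in macrophages. T cells, as background, were at 0.559 and 0.497 CPM. Macrophages, which were many and deep, held 42.2% of treated and 37.2% of control Csf3r UMIs, and neutrophils 10.9% and 5.35%.

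**Figure D3:**
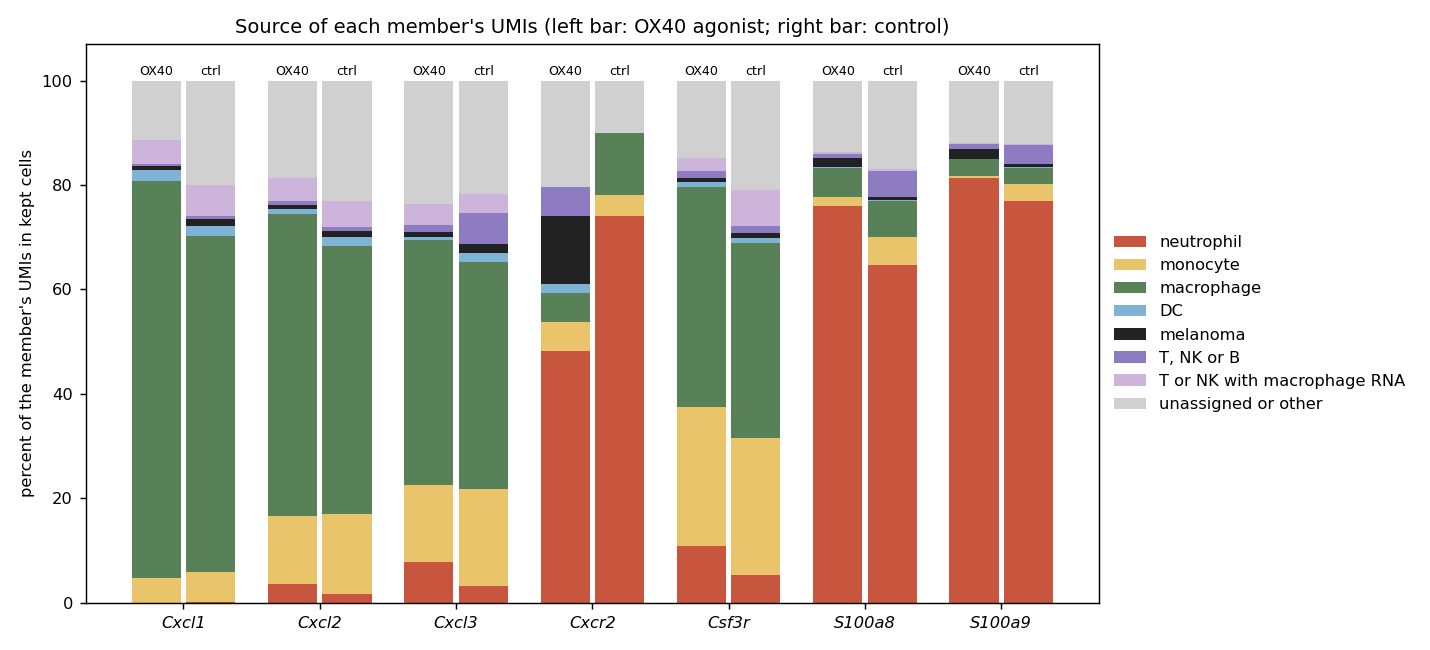
Percent of each member's UMIs in kept cells that came from each gated class, OX40 agonist library in the left bar and control library in the right bar of each pair. Macrophages (green) gave the largest part of the Cxcl1, Cxcl2, Cxcl3 and Csf3r UMIs and neutrophils (red) the largest part of the Cxcr2, S100a8 and S100a9 UMIs.

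The CXCR2 ligands differed from each other in which cells carried them. Cxcl2 was the most abundant member in neutrophils, at 51829.6 CPM (50604 to 53077) in treated and 48262 CPM (46598 to 49969) in control cells, 1.07-fold (1.03 to 1.12). It was found in 82 of 83 treated and 35 of 36 control neutrophils. A treated neutrophil held between 0 and 354 Cxcl2 UMIs with a median of 63, and a control neutrophil between 0 and 352 with a median of 51.5. As a percent of the cell's UMIs the medians were 4.43% and 3.17% and the highest values 14.5% and 12.3%, so the libraries overlapped over most of their range. Monocytes were at 5674 and 5289 CPM and macrophages at 4916 and 5072 CPM. Cxcl3 followed the same order at lower levels, with 3985 and 3627 CPM in treated and control neutrophils, 227 and 250.2 CPM in monocytes and 143 and 170 CPM in macrophages. In neutrophils it was found in 44.6% of treated and 55.6% of control cells, and 25.9% and 31.4% of its UMIs came from 1 cell. The 9 treated and 4 control cells richest in Cxcl3 held 77.6% and 72.4% of its UMIs, where the cells richest in Cxcl2 held 32.4% and 34.2% of Cxcl2 UMIs. Cxcl3 thus came from fewer neutrophils than Cxcl2. Its ratio between the libraries was 1.10-fold (0.941 to 1.29), but the alternatives ranged from a log2 ratio of -0.38 to 0.57, so no direction held.

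Cxcl1 was carried by macrophages and rested on a few UMIs in neutrophils. In macrophages it was at 459 and 301 CPM in the treated and control library. Treated neutrophils held 4 Cxcl1 UMIs and control neutrophils 10, of which 3 and 7 came from 1 cell each. In the wider neutrophil cluster there were 43 and 10, or 177 and 89.7 CPM, so the direction depends on how neutrophils are chosen. Macrophages held 76.1% of treated and 64.4% of control Cxcl1 UMIs. Over 10 classes and both libraries, 20 points that share libraries and depth, Pearson's r of log levels was 0.96 between Cxcl2 and Cxcl3 but 0.64 between Cxcl1 and Cxcl3.

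Neutrophils took a small part of the libraries' chemokine RNA despite their high level. They held 3.59% of treated and 1.74% of control Cxcl2 UMIs and 7.74% and 3.31% of Cxcl3 UMIs. Macrophages held 57.8% and 51.3% of Cxcl2 UMIs. Cells without a class held a further 18.5% and 22.9%.

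Cxcl1 was higher in treated macrophages and gated monocytes, while Cxcl2 and Cxcl3 lay near or below their control levels in macrophages. In macrophages Cxcl1 was 1.52-fold (1.47 to 1.57). It was found in 34.5% (32.3 to 36.8) of treated and 25.6% (23.2 to 28.2) of control cells. After thinning these shares were 18.1% and 11.8%, against 0.455% and 0.104% of T cells. In monocytes it was at 145 and 93.9 CPM, 1.54-fold (1.37 to 1.74), and a log2 ratio of 0.58 that was -0.01 when clusters took the place of the gate. Cxcl2 was 0.969-fold (0.961 to 0.978) in macrophages and 1.07-fold (1.05 to 1.09) in monocytes. Cxcl3 was 0.841-fold (0.7998 to 0.883) in macrophages and 0.909-fold (0.837 to 0.988) in monocytes. None of the 6 members tested in each of these classes met the size rule, which 0.239% of genes met in macrophages and 0.0153% in monocytes. Csf3r, S100a8 and S100a9 lay under 50 CPM in both libraries there, so they could not meet it.

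Of the gated monocytes and macrophages, 2438 of 2512 treated and 1821 of 1918 control cells lay in 6 clusters, formed without the members, that held at least 50 such cells in each library. The Cxcl1 ratio lay between 0.965-fold and 2.08-fold in them, and the difference between clusters was not tested. In the cluster led by Spp1 and Arg1, Cxcl1 was at 809 CPM in 409 treated and 446 CPM in 234 control cells, 1.81-fold (1.70 to 1.94). In the cluster led by Ifit1 and Mmp12 it was at 476 and 229 CPM, 2.08-fold (1.92 to 2.25). The clusters led by Saa3 and Birc5 and by Inhba and Hspa1b gave 1.18-fold each. In the monocyte-rich clusters led by Ly6i and Ass1 and by Hp and Ifitm6 it was 0.965-fold (0.843 to 1.11) and 0.995-fold (0.801 to 1.24). Of these clusters, only the one led by Ifit1 and Mmp12 met the size rule for Cxcl1, with a log2 ratio of 1.03. The share of all genes that met the rule in a cluster was not counted. With the cluster mix of macrophages held at that of the control library, the log2 ratio of Cxcl1 was 0.49, against 0.59 without this step.

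Cxcl2 and Cxcl3 were highest in the Spp1 and Arg1 cluster too, but lower in its treated cells. Cxcl2 was at 9409 CPM in treated and 11159 CPM in control cells of that cluster, 0.843-fold (0.830 to 0.856). Cxcl3 was at 535 and 694 CPM, 0.771-fold (0.724 to 0.821). Cxcl3 was lower in the treated cells of the Inhba and Hspa1b cluster too, at 436 and 656 CPM, and of the Ifit1 and Mmp12 cluster, at 39.7 and 83.8 CPM. In the Saa3 and Birc5 cluster it was higher, at 27.0 and 12.2 CPM. In the Hp and Ifitm6 cluster Cxcl2 was higher in treated cells, at 4433 and 3295 CPM, 1.35-fold (1.31 to 1.39).

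**Figure D4:**
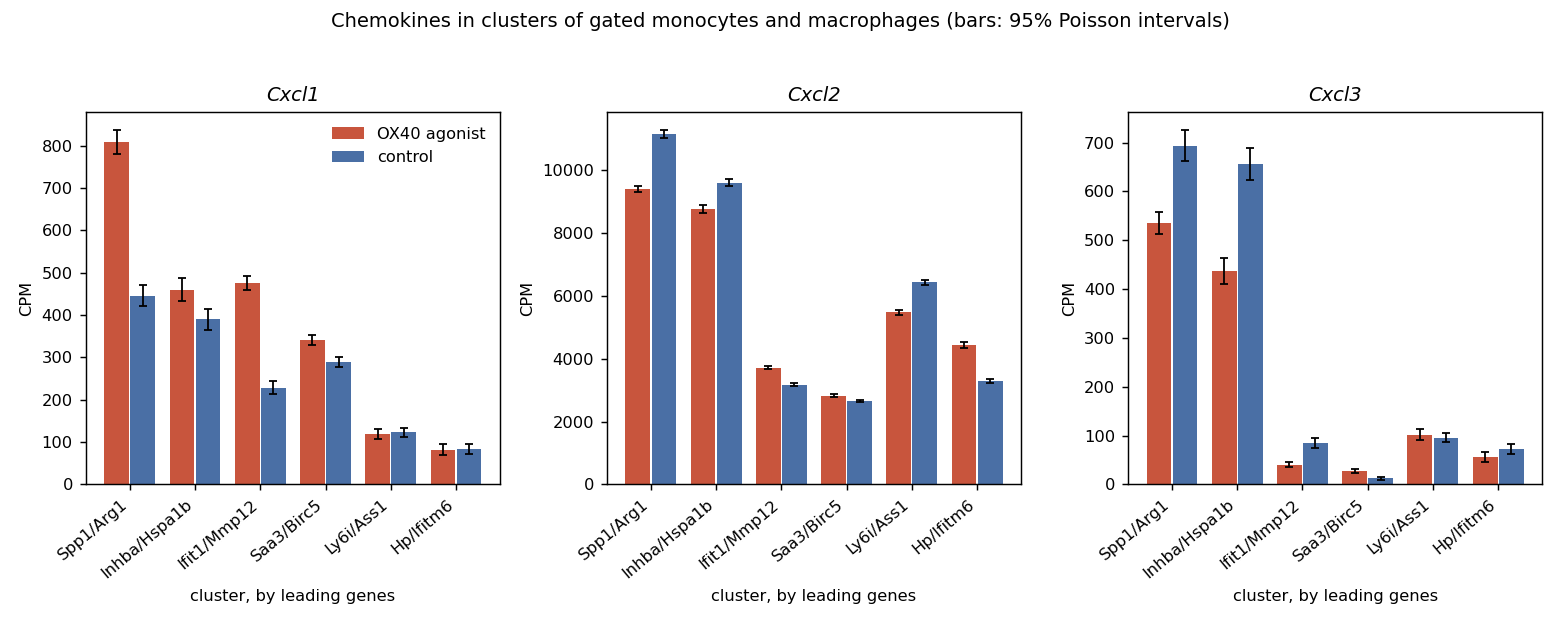
Levels of Cxcl1, Cxcl2 and Cxcl3 in CPM in 6 clusters of gated monocytes and macrophages, named by 2 leading genes, OX40 agonist bars left of control bars; error bars are 95% Poisson intervals. Cxcl1 was 1.81-fold and 2.08-fold in the Spp1/Arg1 and Ifit1/Mmp12 clusters, while Cxcl3 was 0.771-fold and 0.474-fold there.

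Within a library Cxcl2 went with Cxcl3 in neutrophils and more weakly with both Cxcl1 and Cxcl3 in macrophages. The S100 genes and Cxcl2 went apart in neutrophils. As descriptions over single cells that share a library and differ in depth, Spearman's rho between S100a8 and S100a9 as a percent of the cell's UMIs was 0.91 in 83 treated and 0.94 in 36 control neutrophils. Between Cxcl2 and Cxcl3 it was 0.54 and 0.58. Between S100a8 and Cxcl2 it was -0.62 and -0.34, and between S100a9 and Cxcl2 -0.58 and -0.35. Percentages of the same total are bound together, which lowers such a rho when each gene takes several percent of a cell. In macrophages rho between Cxcl1 and Cxcl2 was 0.37 in 1762 treated and 0.34 in 1218 control cells. Of the 608 treated cells with Cxcl1, 598 also held Cxcl2, which was found in 86.3% of all treated macrophages. In the same treated and control macrophages rho was 0.38 and 0.43 between Cxcl2 and Cxcl3, and 0.17 and 0.19 between Cxcl1 and Cxcl3.

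**Figure D5:**
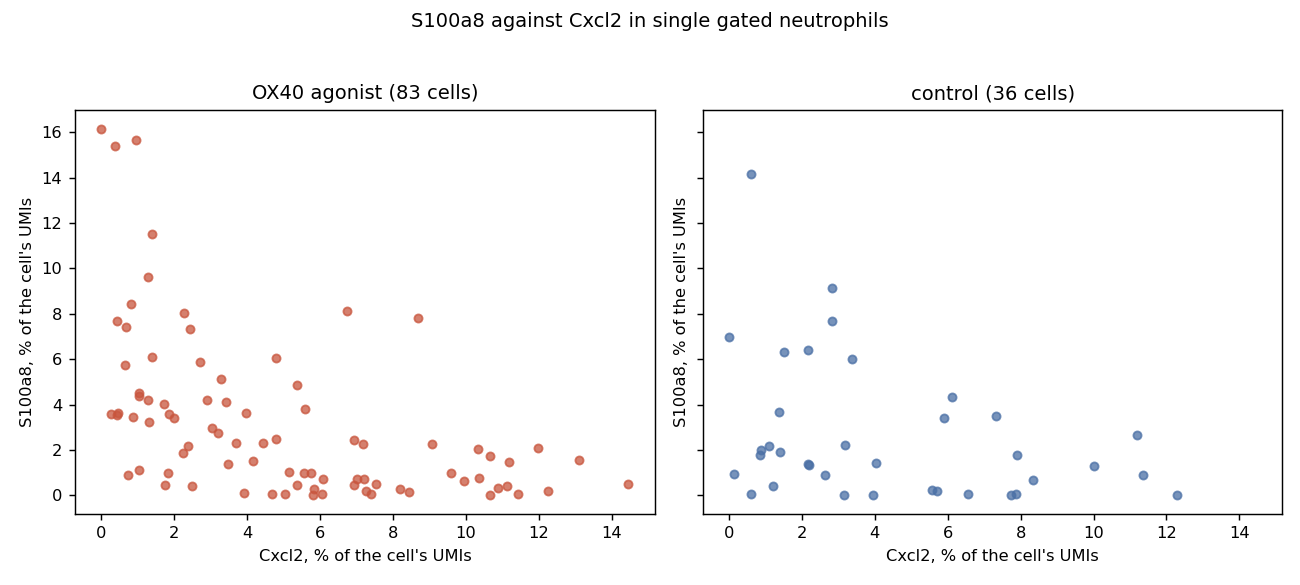
S100a8 against Cxcl2, each as a percent of the cell's UMIs, in 83 neutrophils of the OX40 agonist library (left) and 36 of the control library (right); each point is 1 cell. The highest S100a8 values lay in cells low in Cxcl2, and rho was -0.62 in the treated and -0.34 in the control library.

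DCs carried Cxcl1 and Cxcl2 at lower levels than macrophages. In cDC1, Cxcl2 was at 165 CPM in the treated and 749 CPM in the control library, 0.220-fold (0.193 to 0.250), with 285 and 1400 UMIs. It was found in 31.5% and 31.0% of cells, and 34.7% and 41.0% of the UMIs came from 1 cell. After thinning it was found in 10.5% and 9.20% of cells, against 4.33% and 2.50% of T cells. The log2 ratio was -2.12, or -1.96 without those cells, -1.33 without doublet removal and -1.10 after thinning. There, 1 of the 3 members tested met the size rule, as did 0.649% of all genes. Macrophage markers summed to 382 CPM in treated and 1232 CPM in control cDC1, and the median cell held 12602 and 20771 UMIs. Their part in the Cxcl2 difference was not tested. In cDC2, Cxcl2 was at 793 and 1178 CPM, found in 36.2% and 47.7% of cells, and Cxcl1 at 46.7 and 90.8 CPM, and 81.3% of the control Cxcl1 UMIs came from 1 cell. None of 3 members met the rule in cDC2, against 0.333% of genes. Macrophage markers summed to 441 CPM in treated and 945 CPM in control cDC2.

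In mature migratory DCs both members tested were higher in the treated library by the size rule, which 0.167% of genes met. Cxcl1 was at 60.3 CPM (52.5 to 69.0) in the treated and 13.1 CPM (8.85 to 18.7) in the control library, 4.60-fold (3.13 to 6.98). Cxcl2 was at 168 and 77.4 CPM, 2.17-fold (1.83 to 2.58), where T cells were at 69.6 and 57.3 CPM. It was found in 27.1% of treated and 32.2% of control cells, the other direction, and in 7.39% and 4.72% after thinning. From 1 treated cell came 36.9% of the Cxcl1 and 44.1% of the Cxcl2 UMIs. Without the top cells the log2 ratios were 1.24 and 0.43, against 1.61 and 1.03 with them, and neither gene then met the rule. When clusters took the place of the gate they were 1.08 and 0.24, and neither met it.

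Melanoma cells held little of any member. Cxcl2 was at 34.5 CPM in treated and 76.2 CPM in control melanoma cells, 0.453-fold (0.423 to 0.485), where T cells were at 69.6 and 57.3 CPM. Without doublet removal its log2 ratio was -0.19, against -0.95 with it. The 1 member tested did not meet the rule there, which 0.294% of genes met. In NK cells Cxcl2 was at 219 and 48.5 CPM and met the rule as 1 of 3 members, against 0.17% of genes, but 85.1% of the treated UMIs came from 1 cell and the log2 ratio was 0.07 without the top cells, against 1.97 with them. Plasmacytoid DCs held 7 treated and 6 control Cxcl2 UMIs and no Cxcl1 or Cxcl3 UMI.

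Lists of genes related to the members, chosen with results of these data known, held 4 genes that met the size rule in neutrophils, which 0.363% of all genes did there. The medians of these lists stand beside a median log2 ratio of -0.21 over all 6609 genes. Of the 9 measured inflammatory genes often induced with Cxcl1 to Cxcl3, Ier3, an early response gene, met the size rule, at 4115 CPM in treated and 2034 CPM in control neutrophils, 2.02-fold (1.67 to 2.46). The list's median log2 ratio was -0.09. None of 5 measured other neutrophil attractants met it, with Ccl4 at 11871 and 10502 CPM and the list's median at 0.12. Of 11 measured homing and sensing receptors, none met it, and their median was 0.01. The complement receptor C5ar1 was 0.706-fold (0.496 to 1.01). Of 6 measured granule genes, Ltf, Camp and Ngp met the rule, with 70, 278 and 228 UMIs in treated and 1, 0 and 0 in control neutrophils, and 95.7% to 99.6% of these came from the granule-rich cell. The list's median was 2.63. None of 8 genes of the G-CSF list, median 0.00, and none of 8 other S100 genes and receptors, median -0.07, met it. Csf3, which encodes G-CSF, had 0 treated and 6 control UMIs in neutrophils.

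No gene of these lists met the rule in monocytes or macrophages. In macrophages 7 of 9 inflammatory genes lay below their control level (median -0.11, beside 0.01 over all genes), and Il1b, the interleukin 1 beta gene, was 0.812-fold (0.799 to 0.826). The medians of the attractant, G-CSF, homing and S100 lists lay between -0.13 and -0.07. The CXCR2 ligand gene Ppbp was at 18.8 and 7.17 CPM, 2.62-fold (2.15 to 3.21), under the 50 CPM that the rule needs. The leukotriene receptor gene Ltb4r1 was at 40.6 and 72.4 CPM, 0.560-fold (0.514 to 0.610). In monocytes Ier3 was 1.61-fold (1.54 to 1.70), and the medians of the 6 lists lay between -0.04 and 0.20. List genes met the rule in DCs too. In cDC1 these were 2 of 4 measured attractants, 1 of 8 S100-list genes and 1 of 9 inflammatory genes, all lower in treated cells. In cDC2, 2 of 4 attractants met it as lower. In mature migratory DCs, 2 of 4 met it as higher and 1 as lower. Plasmacytoid DCs had 1 attractant higher, 1 lower and 1 S100-list gene lower. Shares of all genes were 0.649%, 0.333%, 0.167% and 0.279% in that order.

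The genes whose levels over the 20 points of class and library were most like each member followed the same division. The ranking took in 2857 genes with at least 100 CPM in a class of each library. Markers of the neutrophil gate, mitochondrial and ribosomal protein genes and genes with Gm or Rik names were left out beforehand. Among those ranked, the nearest to Cxcl1 were C3ar1, the complement C3a receptor (r = 0.92), Mfsd1 and Ccl9. Nearest to Cxcl2 were Cd300ld (r = 0.98), Clec4d and Ccr1. Nearest to Cxcl3 were Acod1 (r = 0.98), which makes itaconate, Hcar2 and Fpr2. Cxcr2 was most like S100a9 (r = 0.98), AC110211.1 and the formyl peptide receptor gene Fpr1. Csf3r was most like Slfn4 (r = 0.99), Arg2 and Id1. S100a8 and S100a9 were most like each other (r = 1.00). Next came Fpr1 and Lcn2 (lipocalin 2) for S100a8, and Lcn2 and AC110211.1 for S100a9.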

How the data were processed

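The authors deposited UMI counts per gene and barcode as whole numbers without normalization, made with Cell Ranger on mm10 per the submitters' processing notes, and version 3.1.0 per the file headers. Barcodes under 500 UMIs or 200 genes or over 10% mitochondrial UMIs were left out, and the highest Scrublet scores (scanpy 1.11.5, 2 simulated doublets per cell) were removed at 0.8% per 1000 barcodes, 514 treated and 365 control. A cell took the class with the highest share of markers found, with at least 3 (melanoma 5) and a lead of 10 percentage points. Droplets with T or NK markers and at least 4 macrophage markers were set apart. The gate's scoring was set while marker genes were inspected. Levels are summed counts scaled to 1000000 per class, with exact Poisson and Clopper-Pearson 95% intervals that cover counting error only. No test was possible with 1 library per group. Alternatives changed filters, gate, scaling, pseudocount and single cells. The members and lists were chosen with earlier results of these data known. The text names all members and the 3 genes most similar to each. Of the lists it names, in neutrophils, monocytes and macrophages, genes that met the size rule or otherwise up to 3 with the largest ratios. List genes that met it in DCs were counted and not named. The size rule was tested on simulated Poisson counts that hold no spread between cells. That test does not cover differences resting on single cells.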

Additional observations from a re-analysis of the deposited data

Results flagged for a closer look

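Cxcl2 met the size rule in opposite directions in different classes, and this difference between classes was not tested. Its log2 ratio, OX40 agonist over control, was -2.12 in cDC1, 1.03 in mature migratory DCs and 1.97 in NK cells. Its UMIs were concentrated in few cells, with 34.7% of treated and 41.0% of control cDC1 UMIs, 44.1% of treated mature migratory DC UMIs and 85.1% of treated NK cell UMIs from 1 cell each. Without the cell that held most Cxcl2 UMIs in each library, the log2 ratio was -1.96 in cDC1, 0.43 in mature migratory DCs and 0.07 in NK cells, and only cDC1 still met the rule. Macrophage markers were also lower in treated cDC1, at 382 CPM against 1232 CPM in control cDC1, and their part was not tested.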

How the results depend on the processing

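Each group is 1 library, so no replicate could be left out. No paired analysis was possible because each group is 1 library. Of 45 log2 ratios (OX40 agonist over control), 24 kept 1 direction in every alternative, Cxcr2 in neutrophils (-1.64 to -1.30) and Cxcl1 in macrophages among them. With at most 5% mitochondrial UMIs, Cxcr2 in neutrophils was at -1.43 but did not meet the size rule. Barcodes found in both libraries, the granule-rich treated cell with its control counterpart, and the cluster mix were added as alternatives after seeing the data. That control counterpart held only 1 UMI of the granule genes. Without the barcodes found in both libraries the same 5 pairs met the rule. Depth limits Cxcr2, which rests on 26 treated and 37 control neutrophil UMIs. The causes of the changes below were not tested.

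The count of 5 pairs that met the size rule was 3 without doublet removal, 3 with a pseudocount of 50 CPM and 2 without the top cell. With clusters it was 4, of which 2 were shared (Cxcr2 in neutrophils and Cxcl2 in cDC1) and S100a8 and S100a9 in monocytes were added. The stricter gate gave 5, with Cxcl1 in cDC2 in place of Cxcl2 in NK cells. Cxcl2 in NK cells reversed to -0.56 with the stricter gate and to -0.022 with clusters. Cxcl1 in macrophages was 0.53 with 50 CPM added and 0.49 with the cluster mix held. Over all kept cells, the mean over cells gave 0.65 for Cxcl1, 0.38 for Cxcl2, 0.51 for Cxcl3, -0.078 for Cxcr2, 0.26 for Csf3r, 1.28 for S100a8 and 1.29 for S100a9. Thinning gave 0.62, 0.33, 0.44, -0.12, 0.10, 1.18 and 1.08 in the same order. With 1 CPM added, Cxcl1 was 0.61, Cxcr2 0.034, Csf3r -0.17, S100a8 1.18 and S100a9 1.21, and with 50 CPM Cxcl1 was 0.42, S100a8 0.51 and S100a9 0.60. Cxcl2 was 0.044 with at most 20% mitochondrial UMIs. S100a8 and S100a9 were 0.89 and 0.95 with at least 1000 UMIs, 1.18 and 1.30 with at most 5% mitochondrial UMIs, and 0.88 and 0.94 without doublet removal. They were 0.83 and 0.90 without the top cell, and 0.78 and 0.88 without the granule-rich treated cell and its control counterpart.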
